A study of Mus musculus with 16 samples.

Results

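Interferon-stimulated genes are the genes that a cell switches on when interferon signals that a virus or bacterium is near. A list of 42 of them was followed in mouse macrophages grown from stem cells. The list was chosen by gene name, with earlier results of these data known. The genes were read from the array probes assigned to each symbol. Of the 42 genes, 41 had a probe and were measured among 12759 genes in all. No probe was matched to Ifi203.

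Messenger RNA was compared on 16 Agilent arrays in 4 groups of 4 biological replicates, lettered a to d. The groups were macrophages given lipopolysaccharide (LPS, 10 ng/mL) for 8 h, macrophages given 200 µM heme-albumin for 8 h, macrophages given 50 µM heme-albumin for 8 h, and macrophages with no treatment at 0 h, called control here. LPS is a wall component of bacteria that activates macrophages through the receptor Tlr4, and heme, the iron-bearing part of hemoglobin, was given bound to albumin. The series asks whether heme triggers inflammation. Each array set its sample, in red, against untreated reference RNA, in green, and each value below is the log2 of red over green, so that 0 means the level of the reference. A group was neither left untreated for 8 h nor given albumin alone, so effects of time in culture or of albumin cannot be told apart from those of heme or LPS. The mouse strain and the way the macrophages were grown from stem cells are not given in the sources used here.

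Macrophages and most other cells sense bacterial or viral material through receptors such as Tlr4, which switch on the interferon-beta gene Ifnb1. Secreted interferon binds a receptor of the subunits Ifnar1 and Ifnar2, the kinases Jak1 and Tyk2 phosphorylate factors such as Stat2, and these join Irf9 to form a complex that binds the interferon-stimulated response element in promoters. The products of the target genes block translation, degrade RNA, tag proteins and sense foreign nucleic acid, and some of them damp the signal again.

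The core of that response element was searched as GAAA, any 2 bases and GAAA again, on both strands of the 250 bases before each gene's start in RefSeq (GRCm38.p6). It was present in 10 of 34 members with a promoter window (29.4%), against 936 of all 27025 genes with one (3.46%). The STAT site, TTC followed by any 3 bases and GAA, was present in 5 of the 34 members (14.7%), against 2197 of the 27025 genes (8.13%). A match is a run of letters and not a tested binding site, and overlapping matches within 1 promoter were counted once. The windows below belong to the 5 members with the largest change after LPS among those that hold the core. They are shown because these 5 genes rose after LPS and had a lower mean at both doses of heme-albumin, and capitals mark the matches, which read TTTC, 2 bases and TTTC where the match is on the opposite strand.
Rsad2 (chr12:26456508-26456627, minus strand): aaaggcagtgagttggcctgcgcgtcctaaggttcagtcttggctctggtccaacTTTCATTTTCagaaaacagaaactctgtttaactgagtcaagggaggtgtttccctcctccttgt
Ifit1 (chr19:34640739-34640858, plus strand): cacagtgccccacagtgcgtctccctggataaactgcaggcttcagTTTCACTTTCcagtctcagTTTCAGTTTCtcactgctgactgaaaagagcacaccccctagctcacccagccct
Ifi213 (chr1:173599281-173599400, minus strand): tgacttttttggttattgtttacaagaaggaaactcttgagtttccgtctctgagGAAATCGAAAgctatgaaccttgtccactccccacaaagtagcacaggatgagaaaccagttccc
Isg15 (chr4:156200826-156200945, minus strand): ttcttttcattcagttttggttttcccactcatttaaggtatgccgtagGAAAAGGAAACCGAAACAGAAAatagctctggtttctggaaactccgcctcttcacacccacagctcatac
Ifit3 (chr19:34583335-34583454, plus strand): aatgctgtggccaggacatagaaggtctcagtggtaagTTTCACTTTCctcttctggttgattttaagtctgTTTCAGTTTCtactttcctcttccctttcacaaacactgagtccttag

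Isg15 holds 3 overlapping matches in its window, Ifit1 and Ifit3 hold 2 each, and Rsad2 and Ifi213 hold 1 each. The first match lies at positions -120 to -111 from the start of the gene in Rsad2, at -104 to -95 in Ifit1, at -73 to -64 in Ifi213, at -78 to -69 in Isg15 and at -156 to -147 in Ifit3. Among the 33 measured members with a window, the 9 that hold the match had a median log2 change of 2.94 after LPS and -0.76 at 200 µM. The 24 without it had medians of 2.66 and -0.55, with changes after LPS from 1.15 to 5.40, so the ranges of both sets overlapped.

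Between 49.9 and 59.4% of 39429 probes were well above background in red on each array, and no spot was saturated. Of the 41 measured members, 40 were well above background on all 16 arrays, and Ifi213 was not. The 4 arrays in a group limit the precision. The p-values measure the spread between these cultures, as 1 estimate per gene shared by all 16 arrays. A gene that varied widely after LPS thus has a larger standard error in the heme-albumin comparisons too. This applies to members such as Daxx, Ifih1, Samd9l, Ifi47 and Herc6. Their standard deviations were 0.588, 0.498, 0.327, 0.408 and 0.38 after LPS, and 0.129 or less in each other group. The labelled cell type was checked against 10 macrophage genes. Of these, 9 were well above background on all 16 arrays, among them Csf1r, Adgre1, Mertk and Spi1. Cd68 was not measured, which does not show that it was absent. The lowest and highest summed red signals of the 9, in units of each array's 75th percentile, were 167 and 407 after LPS, 149 and 197 at 200 µM, 130 and 201 at 50 µM, and 93.4 and 199 in control cells. The array holds bulk RNA, in which fewer cells of a type and less RNA per cell cannot be told apart.

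LPS against control asks how far these genes rose in the same kind of cells after 8 h of LPS at 10 ng/mL. All 41 measured members rose at least 2-fold with an adjusted p under 0.05 (limma, Benjamini-Hochberg over the 12759 genes; 14% of all genes met both limits in this direction). A gene that meets both limits is called here. The members' median log2 change was 2.65, against -0.0893 over all genes, and the changes ran from 1.13 for Oas3 to 5.66 for Rsad2. The 4 LPS arrays lay above the 4 control arrays for all 41 members where a value was present, as they did for 31.3% of all genes, and on each of the 4 slides LPS was above control for every member with both values. Where a spot was flagged, a value is missing, which was so for 8 of 656 member values, 6 of them on LPS replicate a.

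After 8 h with heme-albumin these genes differed from the 0 h control the other way, by smaller amounts. Effects of time in culture or of albumin cannot be told apart from those of heme here. At 200 µM, 40 of 41 members had a lower mean than control (54.6% of all genes), 34 of them with an adjusted p under 0.05 whatever the fold (12% of all genes), and 8 were called lower (0.98% of all genes). At 50 µM all 41 had a lower mean (54.6% of all genes), 33 with an adjusted p under 0.05 (1.45% of all genes), and 1 was called lower (0.0784% of all genes). The median log2 change was -0.64 at 200 µM and -0.47 at 50 µM, against -0.0222 and -0.0122 over all genes. Of the genes with an adjusted p under 0.05, 185 were lower at 50 µM, and the 33 members make up 17.8% of them. No member was called higher at either dose, where 2.05% of all genes were at 200 µM and 0.29% at 50 µM, and none was higher at an adjusted p under 0.05 without a fold limit (10.8% of all genes at 200 µM and 2.07% at 50 µM). The 1 member called at 50 µM was Ifi213, also 1 of the 8 at 200 µM, and it was well above background on 1 array and on 0 arrays of these groups. At 200 µM, 4 members were called lower with normexp background correction, 5 without background subtraction and 5 without replicate d. The heme-albumin groups share their control arrays with each other and with LPS, so the 3 comparisons are not independent of one another.

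**Figure D1:**
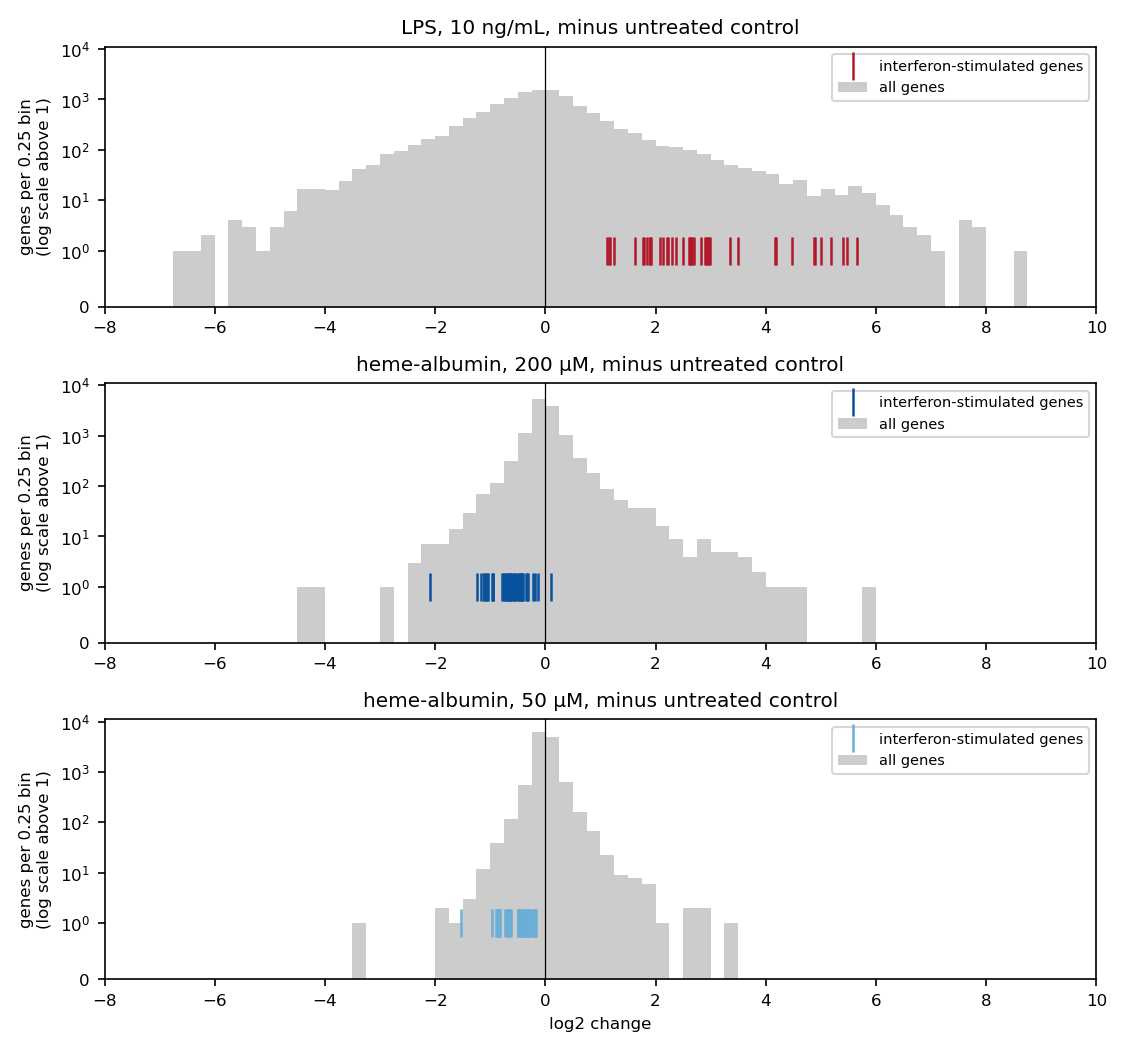
Log2 change against control (x axis) for all 12759 genes as grey bars (number of genes in each 0.25-wide bin, on a log scale above 1) and for the 41 members as coloured ticks, with LPS at the top, heme-albumin at 200 µM in the middle and at 50 µM at the bottom. The ticks all lie to the right of 0 after LPS, and lie left of 0 with heme-albumin except for Isg20 at 200 µM (0.10).

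The 200 µM arrays lay below the control arrays for 38 of 41 members (19.8% of all genes), and the 50 µM arrays for 40 of 41 (10.4% of all genes). Paired by slide, 39 members were below control at 200 µM and all 41 at 50 µM on every slide where both values were present. Lgals3bp has no value on replicate a at either dose. For counts by slide the share of all genes was not worked out. Averaged over the members, the log2 ratio after LPS was 2.75, 2.79, 3.08 and 3.00 (replicates a to d), against -0.0295, 0.013, 0.0001 and -0.0214 in control cells. The 4 values were -0.686, -0.689, -0.572 and -0.805 at 200 µM, and -0.516, -0.562, -0.645 and -0.473 at 50 µM. The mean of LPS replicate a is taken over 35 members, since 6 have no value there. Each treated group stood clear of the control group, and the ranges of the 2 doses overlapped.

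**Figure D2:**
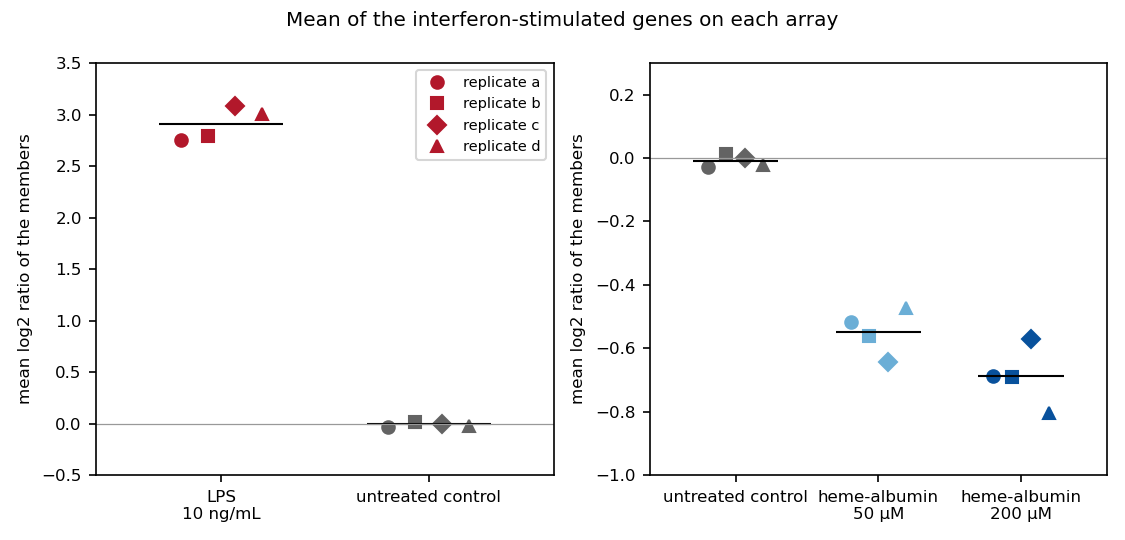
Mean log2 ratio over reference of the members on each array (y axis; points, 1 array, with the marker giving the replicate letter; lines, group means), for LPS and control at left and for control, 50 µM and 200 µM heme-albumin at right. Replicate c is the highest of the 200 µM arrays (-0.572) and the lowest of the 50 µM arrays (-0.645).

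The Ifit genes encode RNA-binding proteins with tetratricopeptide repeats, and Ifit1 binds foreign RNA and blocks its translation. Ifit1 had log2 ratios of 5.05, 5.12, 5.78 and 5.54 after LPS (replicates a to d, as throughout), against 0.01, -0.11, -0.23 and -0.13 in control cells. At 200 µM its ratios were -1.17, -1.32, -0.84 and -1.56, and at 50 µM -0.76, -1.06, -1.15 and -0.86. LPS arrays stood far above control and both doses below it, with no overlap in either direction, while the doses overlapped each other. Ifit1 rose by 5.48 ± 0.167 after LPS (± SE of the fit, log2 scale; adjusted p = 4.1e-13). It fell by 1.11 ± 0.167 at 200 µM (adjusted p = 0.00022) and by 0.85 ± 0.167 at 50 µM (adjusted p = 0.0097). Its call at 200 µM was lost with normexp background correction and without replicate d at that dose.

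Ifit2 had ratios of 4.98, 4.96, 5.40 and 5.27 after LPS, against -0.13, 0.18, -0.04 and -0.14 in control cells. The 200 µM arrays gave -1.02, -1.04, -0.92 and -1.40 and the 50 µM arrays -0.70, -0.93, -1.22 and -0.88. The gene rose by 5.18 ± 0.134 after LPS (adjusted p = 7.9e-14), and fell by 1.06 ± 0.134 at 200 µM (adjusted p = 4.3e-05) and by 0.90 ± 0.134 at 50 µM (adjusted p = 0.0011). Every array of both doses was below every control array. Ifit3, a partner of the other Ifit proteins, had ratios of 2.95, 2.82, 3.07 and 3.06 after LPS, against -0.04, 0.05, 0.11 and 0.03 in control cells. Its ratios were -1.07, -1.06, -0.88 and -1.28 at 200 µM and -0.71, -0.82, -0.99 and -0.80 at 50 µM. The change was 2.94 ± 0.0847 after LPS (adjusted p = 2.4e-13), -1.11 ± 0.0847 at 200 µM (adjusted p = 3.4e-07) and -0.87 ± 0.0847 at 50 µM (adjusted p = 4.2e-05). All 3 Ifit genes were called lower at 200 µM, and at 50 µM their changes of -0.90 to -0.85 were under 2-fold. The call of Ifit2 was lost with normexp, without background subtraction, in the red channel alone, without control replicate b and without replicate d at 200 µM, and that of Ifit3 under no alternative. Ifit3 has a close neighbour and relative, Ifit3b, and whether their probes bind each other's RNA was not tested.

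Isg15 is a ubiquitin-like protein that is joined to other proteins by the enzymes Uba7, Ube2l6 and, in mouse, Herc6, and removed by Usp18, which also blocks the interferon receptor. The 5 genes rose by 1.80 to 4.87 after LPS. At 200 µM 4 of the 5 fell with an adjusted p under 0.05, and at 50 µM 3 did. Usp18 had ratios of 3.86, 3.83, 4.37 and 4.26 after LPS, against -0.18, -0.06, -0.03 and -0.10 in control cells. Its 200 µM arrays gave -1.30, -1.33, -1.25 and -1.45 and its 50 µM arrays -0.94, -1.12, -1.26 and -0.93. Usp18 rose by 4.17 ± 0.113 after LPS (adjusted p = 1.3e-13). Its fall of 1.24 ± 0.113 at 200 µM (adjusted p = 1.8e-06) was the largest among the 40 members well above background on all arrays, and at 50 µM it fell by 0.97 ± 0.113 (adjusted p = 0.00015).

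Isg15 itself changed by 4.87 ± 0.106 after LPS on 3 arrays with a value (adjusted p = 6e-14), by -0.75 ± 0.0985 at 200 µM (adjusted p = 9.4e-05) and by -0.70 ± 0.0985 at 50 µM (adjusted p = 0.00093). Uba7, which activates Isg15, changed by -0.64 ± 0.0588 at 200 µM (adjusted p = 1.9e-06) and by -0.34 ± 0.0588 at 50 µM (adjusted p = 0.0041). The ligase Herc6 fell by 0.69 ± 0.138 at 200 µM (adjusted p = 0.0022), and its change of -0.45 ± 0.138 at 50 µM did not pass (adjusted p = 0.11). The other probe of Herc6 passed at 50 µM (-0.57, adjusted p = 0.0004 in a fit of single probes). Ube2l6, the conjugating enzyme, did not pass at either dose, with changes of -0.14 ± 0.0838 at 200 µM and -0.19 ± 0.0838 at 50 µM (adjusted p = 0.27 and 0.31).

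The Oas genes encode synthetases of short oligoadenylates that activate the RNA-degrading enzyme RNase L, and the Oasl genes encode related proteins. All 5 measured members rose after LPS, by 1.13 for Oas3, 1.63 for Oas2, 2.07 for Oasl2, 2.62 for Oas1a and 4.48 for Oasl1. All 5 fell with an adjusted p under 0.05 at both doses. Oasl2 had ratios of 2.35, 2.16, 2.32 and 2.11 after LPS, against 0.06, 0.21, 0.24 and 0.14 in control cells. The 200 µM arrays gave -0.90, -0.82, -0.91 and -1.05 and the 50 µM arrays -0.68, -0.72, -0.80 and -0.54. None of the treated arrays overlapped the control arrays. It rose by 2.07 ± 0.0729 after LPS (adjusted p = 2e-12), and it fell by 1.08 ± 0.0729 at 200 µM (adjusted p = 8e-08) and by 0.85 ± 0.0729 at 50 µM (adjusted p = 1.4e-05). Its call at 200 µM was lost on the first scan day alone. The other Oas and Oasl genes had changes of -0.65 to -0.40 at 200 µM and of -0.70 to -0.33 at 50 µM.

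Rsad2 encodes viperin, an enzyme that makes a chain-terminating nucleotide, and Cmpk2, its neighbour in the genome, encodes a nucleotide kinase. Rsad2 had ratios of 5.94, 5.76, 5.82 and 5.83 after LPS, against 0.15, 0.24, 0.15 and 0.17 in control cells. At 200 µM the ratios were -0.94, -0.72, -0.63 and -1.16, and at 50 µM -0.60, -0.65, -0.92 and -0.60. Its rise of 5.66 ± 0.101 after LPS was the largest of the members (adjusted p = 2e-15). Rsad2 fell by 1.04 ± 0.101 at 200 µM (adjusted p = 3.3e-06) and by 0.87 ± 0.101 at 50 µM (adjusted p = 0.00015). Its call at 200 µM was lost with normexp, without background subtraction and without replicate d at that dose.

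Cmpk2 had ratios of 4.56, 4.66, 5.01 and 5.18 after LPS, against -0.01, -0.06, -0.04 and -0.02 in control cells. The 200 µM ratios were -1.06, -1.04, -0.63 and -1.21 and the 50 µM ratios -0.51, -0.79, -0.86 and -0.64. Both doses lay below all control arrays and overlapped each other. Cmpk2 changed by 4.89 ± 0.138 after LPS (adjusted p = 2e-13), -0.95 ± 0.138 at 200 µM (adjusted p = 0.00016) and -0.67 ± 0.138 at 50 µM (adjusted p = 0.014). Its other probe gave -1.09 at 200 µM and was called there, which the brighter probe was not.

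The genes of RNA sensing and RNA handling include the helicases Ifih1 (MDA5), Ddx58 (RIG-I) and Dhx58 (LGP2), the Z-nucleic acid sensor Zbp1, the RNA-activated kinase Eif2ak2 (PKR), the RNA editor Adar and the exonuclease Isg20. All 7 rose after LPS, from 1.15 for Adar to 3.36 for Ifih1. At 200 µM 5 of the 7 fell with an adjusted p under 0.05, and none was called. Dhx58 fell most, by 0.95 ± 0.0593 at 200 µM (adjusted p = 3.9e-08) and 0.74 ± 0.0593 at 50 µM (adjusted p = 7e-06). The changes at 200 µM were -0.62 for Zbp1, -0.59 for Eif2ak2, -0.55 for Adar and -0.48 for Ddx58, and at 50 µM the same 4 genes changed by -0.47, -0.48, -0.32 and -0.45 in that order. The fall of Adar was not seen on its other probe, which gave -0.04 at 200 µM and -0.08 at 50 µM (adjusted p = 0.85 and 0.86 in the fit of single probes). Ifih1 had changes of -0.43 ± 0.173 and -0.39 ± 0.173 at 200 and 50 µM (adjusted p = 0.095 and 0.33), and its other probe passed at 200 µM (-0.43, adjusted p = 0.042).

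Isg20 departed from the rest. Its ratios were 0.17, 0.18, 0.24 and 0.00 at 200 µM and -0.10, -0.07, -0.20 and -0.16 at 50 µM, and control cells had 0.07, 0.03, 0.03 and 0.07. The 50 µM arrays were all below the control arrays, whereas 3 of the 4 arrays at 200 µM were above them. The change was 0.10 ± 0.0625 at 200 µM (adjusted p = 0.32) and -0.18 ± 0.0625 at 50 µM (adjusted p = 0.17), and neither passed. On its other probe the change was 0.02 at 200 µM (adjusted p = 0.87) and -0.34 at 50 µM, which passed (adjusted p = 0.013).

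Among genes of DNA sensing, Ifi204 and Ifi213 belong to the PYHIN family and Trex1 encodes a DNA exonuclease. Ifi213 had ratios of 5.18, 5.17, 5.34 and 5.47 after LPS, against 0.07, 0.66, 0.47 and -0.08 in control cells. At 200 µM its ratios were -1.47, -2.79, -0.78 and -2.23, and at 50 µM -1.62, -0.92, -2.08 and -0.40. The LPS arrays lay close together, and those of both doses spread widely below the control arrays. Ifi213 was well above background on 4 LPS arrays, 0 at 200 µM, 1 at 50 µM and 4 control arrays. It rose by 5.01 ± 0.395 after LPS (adjusted p = 1.9e-08). At 200 µM only a bound can be given, since the gene was not well above background on any array there: it was at least 1.61-fold lower than in control cells (adjusted p = 0.0014, measured change -2.10). That call was lost with normexp background correction, where the change was -0.11 (adjusted p = 0.57), without background subtraction, where it was -0.40 and under 2-fold (adjusted p = 0.0029), and on the second scan day alone (adjusted p = 0.11). The first 2 of these changes are also smaller than the bound. Such a bound divides the mean red signal of the bright group by that of the dim group, in which an array whose spot fell below the dimmest measurable probe was raised to that probe's signal. At 50 µM, where the gene was above background on 1 of 4 arrays, its measured change was -1.54 ± 0.395 (adjusted p = 0.046), and it was the member called there. That call was lost with the replicate block (adjusted p = 0.083) and in 7 of 8 fits that left out 1 array, all but the one without replicate d at 50 µM, with adjusted p-values of 0.07 to 0.16. With normexp background correction the change was -0.29 (adjusted p = 0.15). Ifi204 fell by 0.71 ± 0.0847 at 200 µM and 0.49 ± 0.0847 at 50 µM (adjusted p = 3.8e-05 and 0.0049), and Trex1 by 0.44 ± 0.0874 and 0.35 ± 0.0874 (adjusted p = 0.0021 and 0.039). Members of this family are alike in sequence, and whether their probes bind each other's RNA was not tested.

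Parp9 and Parp14 belong to the family of ADP-ribosyl transferases, and Dtx3l is the ubiquitin ligase that partners Parp9. They rose after LPS by 1.89, 2.94 and 1.77. All 3 fell with an adjusted p under 0.05 at both doses, by 0.65 ± 0.101, 0.44 ± 0.0889 and 0.64 ± 0.115 at 200 µM and by 0.47 ± 0.101, 0.40 ± 0.0889 and 0.49 ± 0.115 at 50 µM. The other probe of Dtx3l passed at 200 µM (-0.52, adjusted p = 0.012) and did not at 50 µM (-0.28, adjusted p = 0.38). The membrane proteins Ifitm3, which blocks virus entry, and Bst2 (tetherin), which holds budding virus at the cell surface, moved little with heme-albumin. Ifitm3 fell by 0.32 ± 0.0497 at 200 µM (adjusted p = 0.00028) and by 0.21 ± 0.0497 at 50 µM (adjusted p = 0.028). Bst2 changed by -0.19 ± 0.0799 at 200 µM and -0.17 ± 0.0799 at 50 µM (adjusted p = 0.12 and 0.37), and rose by 2.21 ± 0.0863 after LPS.

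Sp100 is a component of nuclear bodies, Daxx a histone chaperone found there, and Trim30a a member of the tripartite motif family. Sp100 and Trim30a fell at both doses, Trim30a by 0.76 ± 0.0895 at 200 µM (adjusted p = 2.3e-05) and 0.63 ± 0.0895 at 50 µM (adjusted p = 0.00082), and Sp100 by 0.47 ± 0.0574 and 0.32 ± 0.0574 (adjusted p = 3.3e-05 and 0.0047). Daxx did not pass at 200 µM (-0.55 ± 0.199, adjusted p = 0.061) or at 50 µM (-0.33 ± 0.199, adjusted p = 0.52), although all 4 of its arrays at each dose lay below the control arrays. The shared SE of Daxx includes its wide spread after LPS (standard deviation 0.588, against 0.105 at 200 µM, 0.0798 at 50 µM and 0.0188 in control cells). After LPS its ratios were 2.12 and 1.93 on replicates a and b, which were scanned on the first day, and 3.07 and 3.00 on c and d, scanned on the second. Ifih1 was split likewise, with 2.85 on replicate b and 3.79 on d. So were other members, among them Herc6, Ifi47 and Samd9l, whereas Rsad2 and Ifi35 were not. The members' mean after LPS was 2.75 (35 members) and 2.79 on a and b, and 3.08 and 3.00 on c and d. The part of the scan day in these values was not tested.

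Rtp4, a transporter protein induced by interferon, had ratios of 1.91, 1.70, 1.85 and 1.80 after LPS, against -0.26, -0.33, -0.38 and -0.31 in control cells. Its ratios were -1.45, -1.49, -1.31 and -1.69 at 200 µM and -1.12, -1.33, -1.28 and -0.98 at 50 µM. The rise after LPS was 2.13 ± 0.0863 (adjusted p = 9.3e-12), and the fall was 1.17 ± 0.0863 at 200 µM (adjusted p = 2.4e-07) and 0.86 ± 0.0863 at 50 µM (adjusted p = 4.7e-05). Ifi44, an interferon-induced protein, had ratios of 5.20, 5.29, 5.60 and 5.27 after LPS, against -0.07, -0.06, -0.17 and 0.09 in control cells. The ratios were -1.24, -1.21, -0.61 and -1.04 at 200 µM and -0.99, -1.03, -0.82 and -0.64 at 50 µM. It rose by 5.40 ± 0.134 (adjusted p = 4.8e-14), and fell by 0.97 ± 0.134 at 200 µM (adjusted p = 9.8e-05) and 0.82 ± 0.134 at 50 µM (adjusted p = 0.0024), short of 2-fold.

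Of the other members, the GTPase Ifi47, Xaf1, Ifi35 and Lgals3bp fell with an adjusted p under 0.05 at both doses, by 0.70 ± 0.143, 0.79 ± 0.0678, 0.36 ± 0.049 and 0.43 ± 0.063 at 200 µM. Samd9l and Epsti1 did not pass at 200 µM, with changes of -0.33 ± 0.122 and -0.22 ± 0.0924 (adjusted p = 0.063 and 0.1). At 50 µM these 2 changed by -0.22 ± 0.122 and -0.28 ± 0.0924 (adjusted p = 0.46 and 0.15). After LPS the 6 genes rose by 1.24 for Lgals3bp to 4.19 for Ifi47. Xaf1 rose by 2.97 ± 0.0678 on its brighter probe and by 0.53 on its other probe, the largest gap among 13 members with more than 1 probe. None of these 13 had probes of opposite sign in a comparison with control, and 3 did between the doses, namely Adar, Ddx58 and Xaf1.

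**Figure D3:**
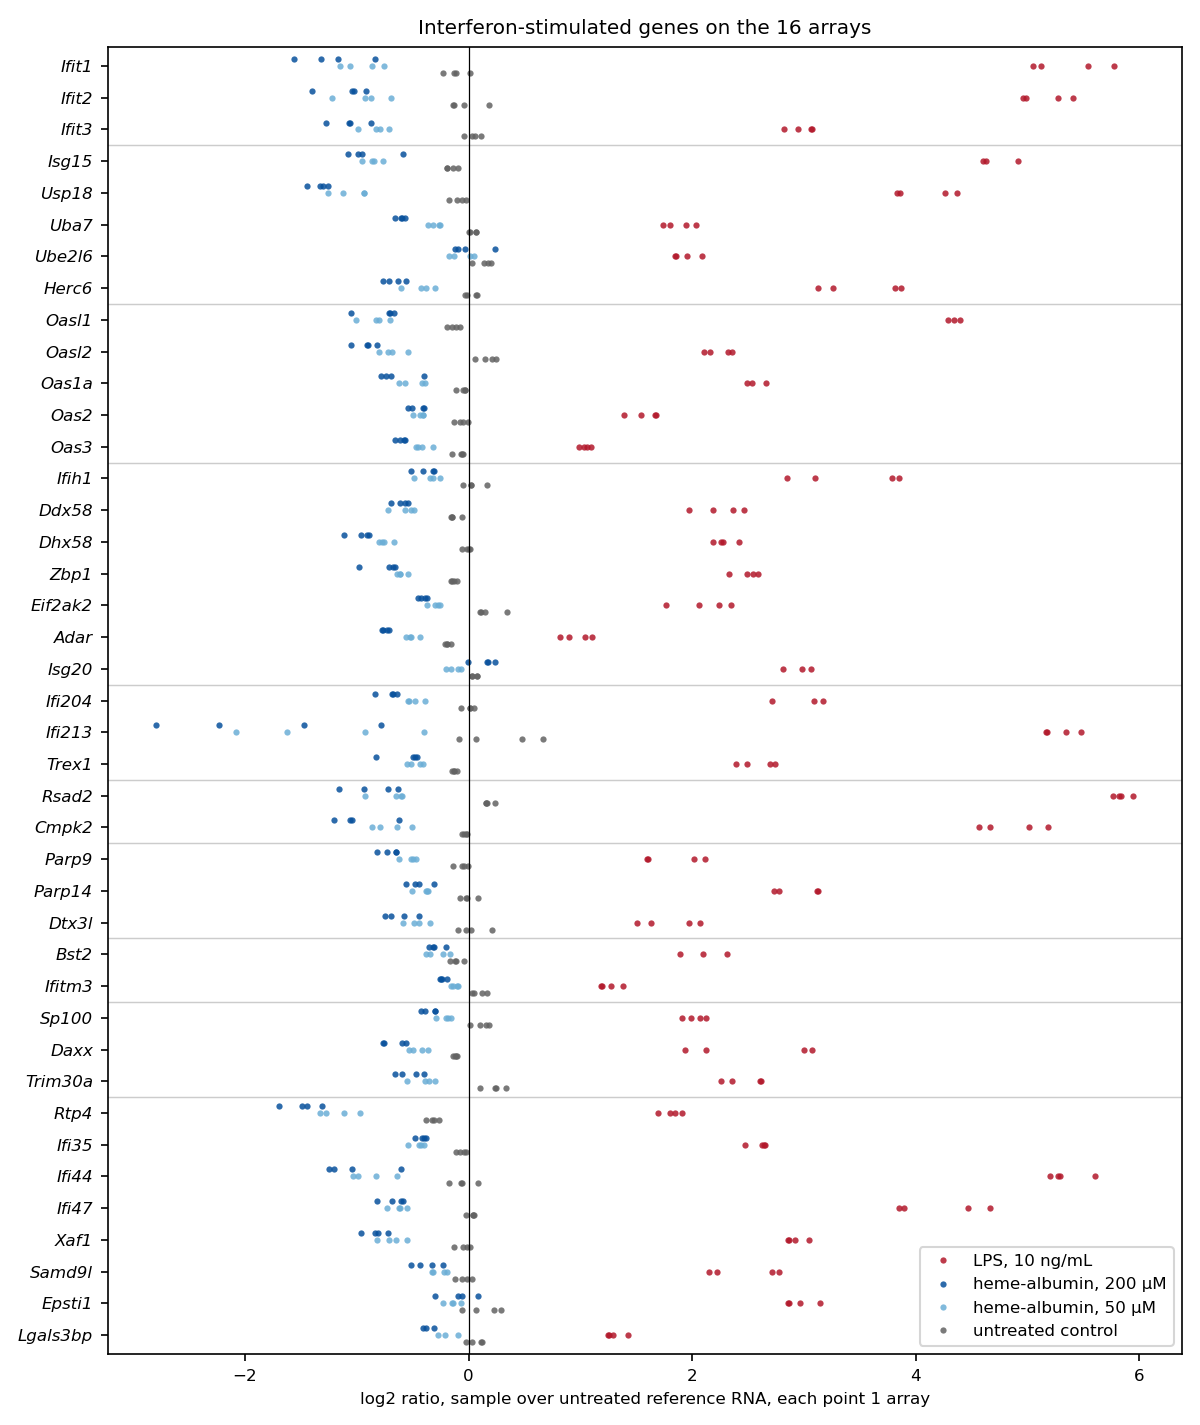
Log2 ratio over untreated reference RNA (x axis) for each of the 41 members (rows, grouped by role between the grey lines), 1 point per array, with LPS in red, heme-albumin at 200 µM in dark blue, at 50 µM in light blue and control in grey. All LPS points lie to the right of the control points of the same gene, and nearly all heme-albumin points lie to the left of them, with Isg20, Ube2l6, Bst2 and Epsti1 the closest to control at 200 µM.

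The doses were set against each other directly. No member was called between 200 and 50 µM, in either direction (0.196% of all genes were called lower and 0.635% higher). At an adjusted p under 0.05 without a fold limit, 5 members were lower at 200 µM (3.41% of all genes) and 1 was higher (4.2% of all genes). The 5 were Uba7 (-0.31 ± 0.0588, 95% interval -0.43 to -0.18), Rtp4 (-0.31 ± 0.0863, -0.49 to -0.12), Adar (-0.23 ± 0.057, -0.36 to -0.11), Dhx58 (-0.22 ± 0.0593, -0.34 to -0.09) and Oas3 (-0.19 ± 0.0448, -0.29 to -0.09). Their adjusted p-values were 0.0045, 0.042, 0.02, 0.039 and 0.018 in that order. The other probe of Adar gave 0.04 between the doses (adjusted p = 0.91). The gene that was higher was Isg20, by 0.28 ± 0.0625 (interval 0.14 to 0.41, adjusted p = 0.014).

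For 7 of the 8 members called lower at 200 µM, the interval of the difference between the doses was -0.52 to -0.03 for Usp18, -0.62 to 0.09 for Ifit1, -0.45 to 0.13 for Ifit2, -0.42 to -0.06 for Ifit3, -0.39 to -0.08 for Oasl2, -0.38 to 0.05 for Rsad2 and -0.49 to -0.12 for Rtp4. These intervals, which are not adjusted for the number of genes, exclude a 2-fold step between the doses. No difference is given for Ifi213, which was too dim at both doses. Over the members the median difference was -0.15, against -0.0092 over all genes, and 36 of 41 were lower at 200 µM (52.9% of all genes). The arrays of the 2 doses did not overlap for 12 members lower at 200 µM (11.3% of all genes) and for 1 higher (10.2% of all genes). Within slides the median difference was -0.16 on a, -0.11 on b, 0.02 on c and -0.29 on d, so slide c showed no lower level at the higher dose.

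**Figure D4:**
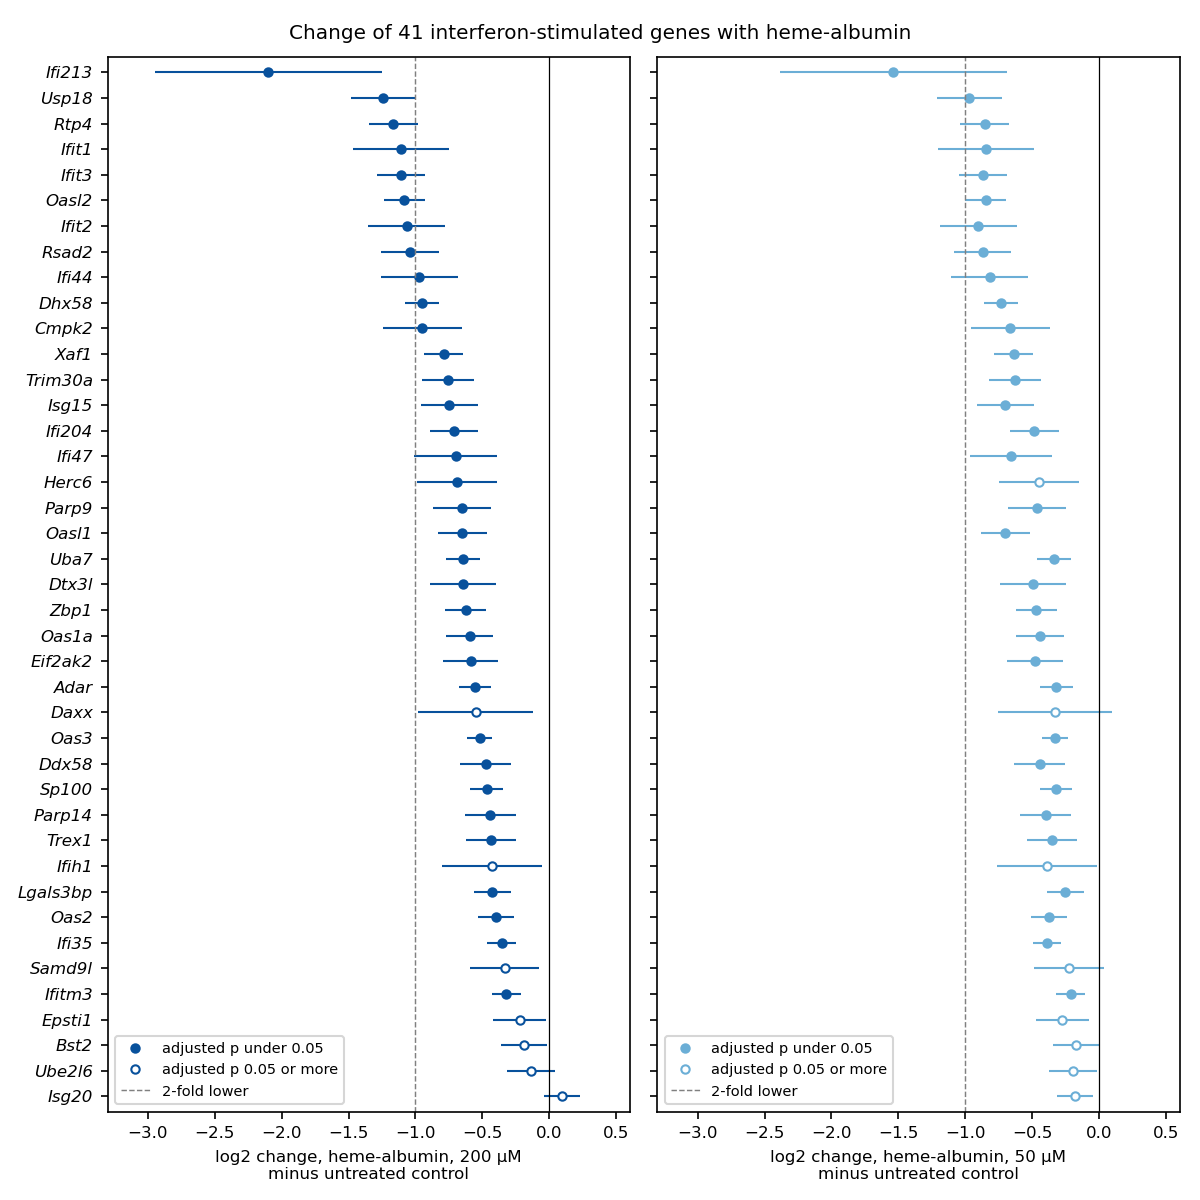
Log2 change of each member against control with heme-albumin at 200 µM (left) and 50 µM (right), ordered by the change at 200 µM. Points are group differences and bars their 95% intervals; filled points have an adjusted p under 0.05, and the dashed line marks a 2-fold lower level, which 7 members well above background pass at 200 µM and 0 at 50 µM. The points of Ifi213, in the top row, come from arrays on which it was mostly not above background and are not measured levels.

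Set against LPS directly, all 41 members were called lower at 200 µM (13.6% of all genes) and all 41 at 50 µM (13.9% of all genes). The median log2 difference was -3.20 at 200 µM and -3.06 at 50 µM, against 0.104 and 0.0991 over all genes. It was smallest for Ifitm3 (-1.49 at 200 µM and -1.38 at 50 µM). Ifi213 was at least 50.9-fold lower at 200 µM than after LPS (adjusted p = 3.7e-10).

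A list of 24 genes of interferon induction, signalling and feedback was read beside the members, and 22 were measured, all but the interferon-alpha genes Ifna2 and Ifna4. After LPS 12 of the 22 were called higher (14% of all genes) and 0 lower (16.7% of all genes). At 200 µM 1 was called higher and 0 lower (2.05% and 0.98% of all genes), and at 50 µM none was called. Without a fold limit, 2 were higher and 4 lower at 200 µM (10.8% and 12% of all genes). At 50 µM 1 was higher and 3 lower (2.07% and 1.45% of all genes), with a median change of -0.11 at 200 µM and -0.0752 at 50 µM.

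Ifnb1, the interferon-beta gene, had ratios of 5.82, 6.35, 7.29 and 6.31 after LPS, against 1.55, 0.00, 0.00 and 0.52 in control cells. The ratios were 0.00, -0.20, 1.87 and -0.54 at 200 µM and 0.00, -0.64, 0.00 and 0.20 at 50 µM. Each ratio listed as 0.00 comes from a spot that was not significantly above background in at least 1 colour. The gene was well above background on 4 LPS arrays, 2 arrays at 200 µM, 1 at 50 µM and 0 control arrays. It was at least 34.2-fold higher after LPS than in control cells (adjusted p = 3e-08). With heme-albumin its changes of -0.23 ± 0.486 at 200 µM and -0.63 ± 0.486 at 50 µM did not pass (adjusted p = 0.79 and 0.66), at signals too low to measure a change.

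Of the complex that binds the response element, Stat2 and Irf9 rose after LPS and fell at both doses. Stat2 rose by 2.42 ± 0.0755 after LPS (adjusted p = 5.4e-13), and fell by 0.60 ± 0.0755 at 200 µM (adjusted p = 4.4e-05) and 0.55 ± 0.0755 at 50 µM (adjusted p = 0.00064). Irf9 rose by 0.41 ± 0.0594 after LPS (adjusted p = 1.6e-05), under 2-fold, and fell by 0.34 ± 0.0594 and 0.27 ± 0.0594 at 200 and 50 µM (adjusted p = 0.00077 and 0.021). Irf7, a factor that amplifies interferon production, rose by 3.21 ± 0.0855 after LPS and fell by 0.52 ± 0.0855 and 0.39 ± 0.0855 at 200 and 50 µM (adjusted p = 0.0005 and 0.018).

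The receptor genes did not pass at either dose. Ifnar1 had changes of 0.25 ± 0.126 and 0.12 ± 0.126 at 200 and 50 µM (adjusted p = 0.18 and 0.8), and Ifnar2 of -0.11 ± 0.0474 and 0.01 ± 0.0474 (adjusted p = 0.11 and 0.98). Jak1, Tyk2, Irf1, Irf3, Tbk1, Ticam1, Ticam2, Tlr4, Myd88, Mavs, Cgas and Socs1 did not pass at either dose. Sting1, an adaptor of DNA sensing, fell by 0.45 ± 0.104 at 200 µM (adjusted p = 0.006). Socs3, a feedback inhibitor of cytokine signalling, was the gene called higher: it rose by 1.07 ± 0.0967 at 200 µM (adjusted p = 1.7e-06) and by 0.55 ± 0.0967 at 50 µM (adjusted p = 0.0042), against 3.13 ± 0.0967 after LPS. The kinase Ikbke rose by 0.52 ± 0.0753 at 200 µM (adjusted p = 0.00014). Socs1, another feedback inhibitor, rose by 4.16 ± 0.103 after LPS and had changes of -0.25 ± 0.103 and -0.21 ± 0.103 at 200 and 50 µM.

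**Figure D5:**
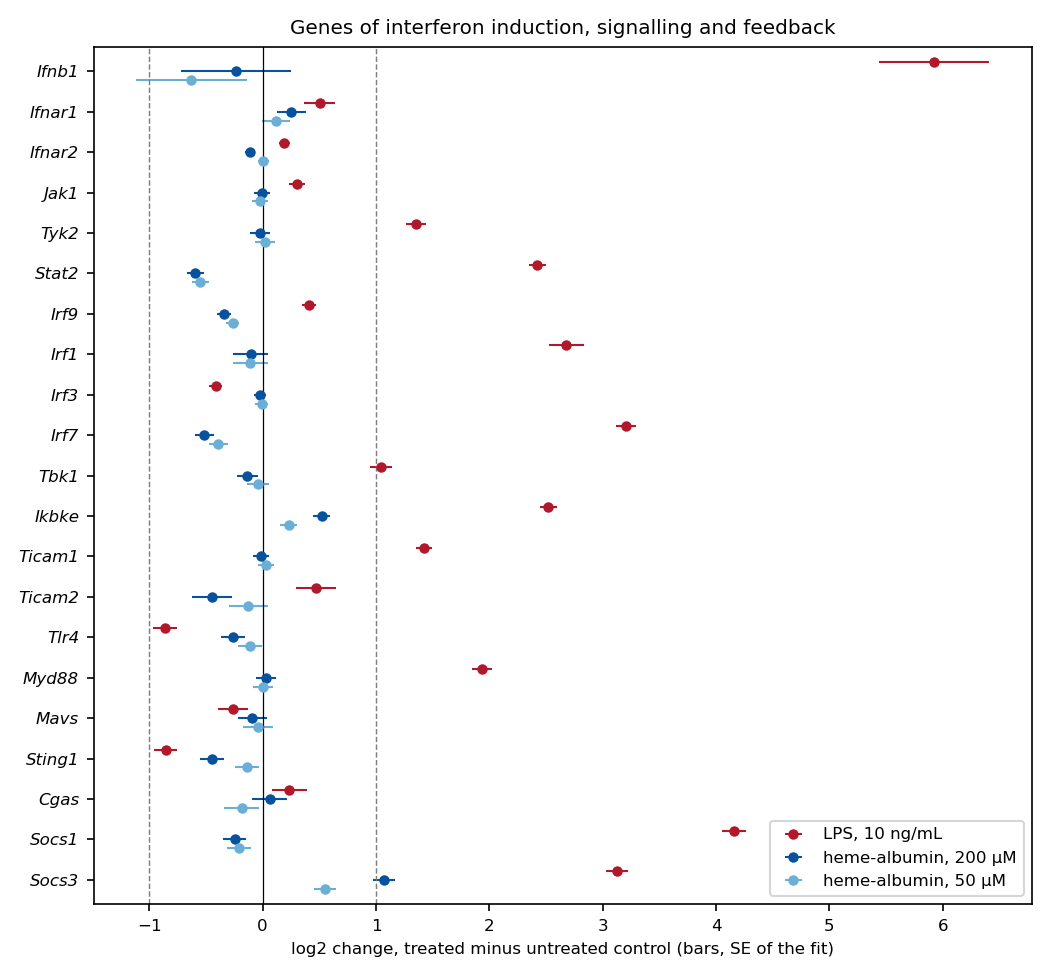
Log2 change against control (x axis; points, group differences; bars, SE of the fit) of the genes of interferon induction, signalling and feedback named in the text, with LPS in red, heme-albumin at 200 µM in dark blue and at 50 µM in light blue; dashed lines mark 2-fold. Socs3 at 200 µM (1.07) is the one heme-albumin point beyond 2-fold, and Stat2, Irf9 and Irf7 lie below 0 at both doses.

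Markers of other cells moved with LPS in part. Of 6 neutrophil genes 4 were measured, and S100a8 and Camp were called higher after LPS, with the summed red signal of the 4 at 4.32 to 8.43 after LPS and 3.94 to 6.15 in control cells (5.78 to 7.61 at 200 µM and 5.65 to 6.91 at 50 µM). Without a fold limit, 3 of the 4 were higher after LPS, and Elane was lower (-0.38, adjusted p = 0.00028). At 200 µM Elane was higher (0.38, adjusted p = 0.0019). Ly6g and Mpo were not measured, which does not show that they were absent. Of 6 genes of plasmacytoid dendritic cells, which make much interferon, 4 were measured, with sums of 5.09 to 21.0 after LPS, 6.2 to 19.7 at 200 µM, 4.54 to 21.1 at 50 µM and 5.24 to 19.0 in control cells. In that list Ccr9 was called higher after LPS, and it was well above background on 2 control arrays and on 3 arrays at each dose. Without a fold limit, Pacsin1 was also higher after LPS (0.24, adjusted p = 0.0022) and Cox6a2 was higher at 200 µM (0.56, adjusted p = 0.00043). Siglech did not pass after LPS or at either dose. Klk1 and Ly6d were not measured. Of 7 genes of T, B and NK cells, 5 fibroblast genes and 5 genes of pluripotent cells, 2, 2 and 1 were measured. Of these the fibroblast gene Dcn was called higher after LPS. It was well above background on 4 LPS arrays and on 0 arrays of each other group, so its control level was not measured. The other fibroblast gene, Col1a2, did not pass after LPS (-0.23, adjusted p = 0.64). The summed signal of the 2 fibroblast genes was 0.191 to 0.242 after LPS and 0.0223 to 0.0365 in control cells. None of these 5 lists had a gene called at 200 or 50 µM. Of the 9 macrophage genes, Mertk and Fcgr1 were called lower at 200 µM (-1.04 and -1.58), and Lyz2 was higher without a fold limit (0.32, adjusted p = 0.022). After LPS 4 of the 9 were called higher, namely Fcgr1 (3.14), Cd14 (2.66), Spi1 (1.49) and Adgre1 (1.17). Without a fold limit 5 were higher after LPS and 4 lower, the latter Mertk (-0.97), Lyz2 (-0.75), Csf1r (-0.63) and Mrc1 (-0.38). The part of all these markers in the members' changes was not tested.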

How the data were processed

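The deposited log10 ratios (LogRatio, red sample over green untreated reference) were made by the authors with Agilent Feature Extraction 10.7.3.1, with background subtraction and linear and lowess dye normalisation per the file headers, and were converted here to log2. The deposited intensity values (processed and median signals, per the file headers) served for filters, bounds and alternatives. Control and outlier spots (188 to 690 per array) were left out, spots of 1 probe averaged, and 27234 of 39429 probes named through RefSeq (GRCm38.p6). A probe was kept if its red signal was well above background on every array of any 1 group (21458 probes), and each gene took its brightest kept probe.

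Group means of all 16 arrays were fitted without a block with limma 3.58.1 (lmFit, eBayes) in R 4.3.3, and p-values were adjusted by Benjamini-Hochberg over 12759 genes within each comparison. A call needs an adjusted p under 0.05 and at least 2-fold. The code was tested on simulated data.

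Slide and replicate letter coincide, and a position on the slide holds 1 group only, so position and group cannot be told apart. Deviations of arrays of 1 letter were positively correlated in every comparison. The correlations were 0.0974 to 0.114 between LPS and control, 0.364 to 0.499 between the doses and 0.103 to 0.33 in the others. The main fit does not take the letters as pairs in any comparison, and the replicate block was fitted as an alternative. Scan days hold 2 replicates of each group, and each day was also fitted alone.

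The values of 1 gene of the interferon signalling list are not reported here. The members, lists and rules were chosen with earlier results of these data known. Ratios on every array are given for Ifnb1 and for the 6 members with the largest called, non-overlapping change in each comparison with control, and those called both ways. Alternatives were other background corrections, the red channel alone, median centring, other probe filters and averages, blocks, single scan days, an unmoderated model and leaving out each array in turn.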

Additional observations from a re-analysis of the deposited data

Results flagged for a closer look

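Among 156 groups of 4 member values, 8 held 1 array whose gap to its nearest neighbour was larger, as a share of the group's range, than the 95% critical value of Dixon's test, and chance gives about 1 in 20. On replicate d at 200 µM, 3 genes stood low: Oasl1 at -1.06 (other arrays -0.71 to -0.67), Zbp1 at -0.98 (-0.71 to -0.66) and Trex1 at -0.82 (-0.49 to -0.46). On replicate c at 50 µM, Rsad2 stood at -0.92 (-0.65 to -0.60) and Parp14 at -0.51 (-0.38 to -0.36). Ifi35 stood at 2.47 on LPS replicate d (2.63 to 2.65). In control cells Ddx58 stood at -0.063 on replicate b (-0.16 to -0.15) and Ifi47 at -0.026 on replicate a (0.04 to 0.05). Values are log2 ratios over the reference RNA. With 1 array left out, Rsad2 at 200 µM was the one of these 8 genes whose call against control changed. That call was lost without replicate d at 200 µM, which is not the array on which Rsad2 was flagged.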

How the results depend on the processing

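After LPS, and for each dose against LPS, 40 or 41 members were called in the same direction under every alternative, 40 where only genes bright on all 16 arrays were kept. The count of 8 lower at 200 µM became 4 with normexp background, 5 without background subtraction and 34 with no fold limit, and was 7 to 9 under the other alternatives. With 1 array left out it ran from 5 (without replicate d at 200 µM) to 10. Ifit1, Ifit2 and Rsad2 lost their call without that array, and Ifit2 also without control replicate b. The 1 call at 50 µM (Ifi213) became 0 with normexp background, without background subtraction, with the red channel alone, with no filter on dim probes, with genes bright on all 16 arrays, on the first scan day alone, in an unmoderated model and with the replicate block, and 33 with no fold limit. With 1 array left out it ran from 0 to 2. On the second scan day alone, and without replicate a at 50 µM, Usp18 was the 1 called in its place. The replicate block changed no other count. Between the doses, 0 lower became 5 with no fold limit. Ifnb1 at 200 µM against control (-0.23, not called) changed sign to 0.0434 with normexp background, 0.75 in the red channel alone and 0.41 on the second scan day alone. With 1 array left out it ran from -0.763 to 0.11, above 0 without control replicate a (0.11) and without replicate d at 200 µM (0.04). The causes of these changes were not tested. Signal over background limits Ifi213 and Ifnb1 most.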

Other observations

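Over the 12 control and heme-albumin arrays, the 8 genes outside the list whose log2 ratios followed the members' mean most closely were Ifit3b (Pearson r = 0.994), Trim34a (0.984), Helz2 (0.982), Irgm1 (0.98), Tfrc (0.977), Jag2 (0.976), Stat2 (0.972) and Gvin1 (0.968). The 12 points share their reference RNA and fall into 3 groups, so r is a description. Ifit3b averaged -1.19 at 200 µM and -0.98 at 50 µM, against -0.08 in control cells, and 3.61 after LPS. Tfrc, the transferrin receptor that takes up iron, averaged -4.02 at 200 µM and -3.28 at 50 µM, against 0.04 in control cells, and 0.15 after LPS. Jag2, a Notch ligand, averaged -1.18 at 200 µM and -0.89 at 50 µM, against 0.07 in control cells, and -2.78 after LPS. Tfrc and Jag2 thus lay low with heme-albumin as the members did, and unlike them did not stand high after LPS.

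Of all 12759 genes, the 100 with the lowest change at 50 µM held 15 of the 41 members, and the 100 lowest at 200 µM held 3. These counts do not mean a smaller fall of the members at 200 µM, where their median change was -0.64, against -0.47 at 50 µM. Over all genes, 125 were called lower at 200 µM and 10 at 50 µM. Within scan days, the members' median change at 200 µM was -0.58 on the first day and -0.66 on the second, and at 50 µM -0.43 and -0.51.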
